A study of Mus musculus with 21 samples.

Results

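Glucose entry into the muscle fibre and its storage as glycogen were followed through 9 genes, chosen by symbol from a table of 53738 gene symbols in mouse quadriceps. These were Slc2a1 and Slc2a4, which encode the glucose transporters GLUT1 and GLUT4, the hexokinase genes Hk1 and Hk2, the glycogen-building genes Ugp2, Gys1 and Gbe1, and Pygm and Phka1, which act in glycogen breakdown. All 9 symbols were found, and all 9 passed the filter of a mean of at least 1 TPM (a transcript level corrected for transcript length and scaled to a fixed library total), as did 11819 symbols in all. The rule used the symbols and no measured value, though the genes were chosen with earlier results of these data known.

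Bulk RNA-seq was available for 21 libraries in 7 groups of 3. All mice were wildtype C57/Bl6 males, 22 to 26 weeks old at sacrifice. Sedentary mice did no exercise, and untrained mice ran a single treadmill bout to exhaustion without previous training. Trained mice had running wheels for 12 weeks of voluntary running before the same kind of bout. Untrained and trained mice were sampled 0 h, 6 h or 72 h later. A group of trained mice without the bout was not analysed here, so a comparison of trained exercised with sedentary muscle holds the training and the bout together, and these cannot be told apart.

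The libraries came from crushed whole quadriceps, and in such bulk tissue fewer cells of a type and less RNA per cell cannot be told apart. The tissue label was checked against 6 muscle fibre markers, whose summed level was 54676 to 77856 TPM in every library. At 0 h, replicate 1 of untrained and replicate 1 of trained muscle held identical values, 25037 of them above 0, so the 21 columns stand for 20 distinct libraries and each 0 h group has 2 libraries of its own. Results that rest on 0 h are therefore given also without this shared library. The other comparisons are given with it, although it enters the spread that all groups share in the fit below 2 times. The part of TPM taken by the mitochondrial genome was 37.7 to 40.6% at 0 h and 42.2 to 46.9% in sedentary muscle, and it reached 48% in trained muscle at 72 h. TPM values hold no read counts, so the depth behind each value is unknown.

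Glucose crosses the fibre membrane mainly through GLUT4, which is stored in vesicles inside the fibre and moves to the surface upon insulin or contraction, whereas GLUT1 resides at the surface of many cell types. Hexokinase then phosphorylates glucose and traps it in the cell. For storage, UGP2 makes UDP-glucose, glycogen synthase (GYS1) links the glucose units into chains and the branching enzyme GBE1 adds the branch points. During contraction, phosphorylase kinase, of which PHKA1 is the muscle regulatory subunit, activates the muscle glycogen phosphorylase PYGM, which releases glucose 1-phosphate. Exhaustive running depletes muscle glycogen, and its resynthesis follows in the hours of recovery.

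Among the 9 genes, Hk2 and Gbe1 changed past both thresholds against sedentary muscle, each at 6 h in untrained and in trained mice. Their promoter windows are shown because these are the members called against sedentary muscle. RefSeq windows of 250 bases before to 50 bases after the annotated start were found for 8 of the 9 genes, in 10 windows, and each window had a single exact match in GRCm39. Capitals mark matches, on either strand, to GGGCGG (GC box), ACGTG (the core letters bound by hypoxia-inducible factors) or TGACG, which overlaps ACGTG where the letters read CACGTCA. The Hk2 window lies on the minus strand at chr6:82751386-82751685 and the Gbe1 window on the plus strand at chr16:70110587-70110886, both in GRCm39.

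Hk2: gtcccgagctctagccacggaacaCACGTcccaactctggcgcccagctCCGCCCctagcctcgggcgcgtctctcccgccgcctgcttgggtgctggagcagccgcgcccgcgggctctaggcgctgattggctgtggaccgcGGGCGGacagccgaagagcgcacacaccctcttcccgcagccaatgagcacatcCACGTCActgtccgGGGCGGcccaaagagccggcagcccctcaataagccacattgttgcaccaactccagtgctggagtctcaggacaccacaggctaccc

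Gbe1: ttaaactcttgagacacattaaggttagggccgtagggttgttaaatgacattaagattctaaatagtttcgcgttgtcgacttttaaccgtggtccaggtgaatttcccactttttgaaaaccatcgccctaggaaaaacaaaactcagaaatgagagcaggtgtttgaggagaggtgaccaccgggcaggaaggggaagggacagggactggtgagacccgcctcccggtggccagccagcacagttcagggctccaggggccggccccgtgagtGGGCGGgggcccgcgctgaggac

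The Hk2 window held 3 GC boxes and 2 ACGTG matches, whereas the Gbe1 window held 1 GC box. A GC box was present in 7 of the 10 windows, from 6 genes, and in 35.7% of 32851 windows of the same length over all genes. ACGTG was found in the windows of 5 genes (Hk1, Hk2, Pygm, Slc2a1 and Ugp2), compared to 19.6% of all windows. TGACG occurred in the Hk2 window alone among the 10, and in 20.8% of all windows. No window of these genes held TGACGTCA (the cAMP response element), TGAGTCA (the AP-1 motif), TCAAGGTCA (the ERR motif) or CACGTG (E-box), which were found in 1.79%, 5.2%, 0.423% and 7.15% of all windows. These matches describe letters in the windows and not binding.

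In sedentary muscle, the levels of the 9 genes spanned a wide range. Pygm was the highest at 1821 ± 136 TPM (SD, n = 3), at rank 49 of the 11819 genes tested. Ugp2 followed at 186 ± 10.8 TPM and Slc2a4 at 181 ± 14.1 TPM, and their libraries overlapped. Gys1, at 96.9 ± 2.02 TPM, lay just above Phka1, at 89.2 ± 5.07 TPM, without overlap. Hk2 was at 49.2 ± 2.15 TPM and Gbe1 at 11.2 ± 1.15 TPM. The lowest were Slc2a1, at 1.94 ± 0.591 TPM, and Hk1, at 1.34 ± 0.118 TPM, which overlapped. Thus the muscle-type member of each isoform pair, Slc2a4 and Hk2, exceeded its ubiquitous counterpart in all sedentary libraries.

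**Figure D1:**
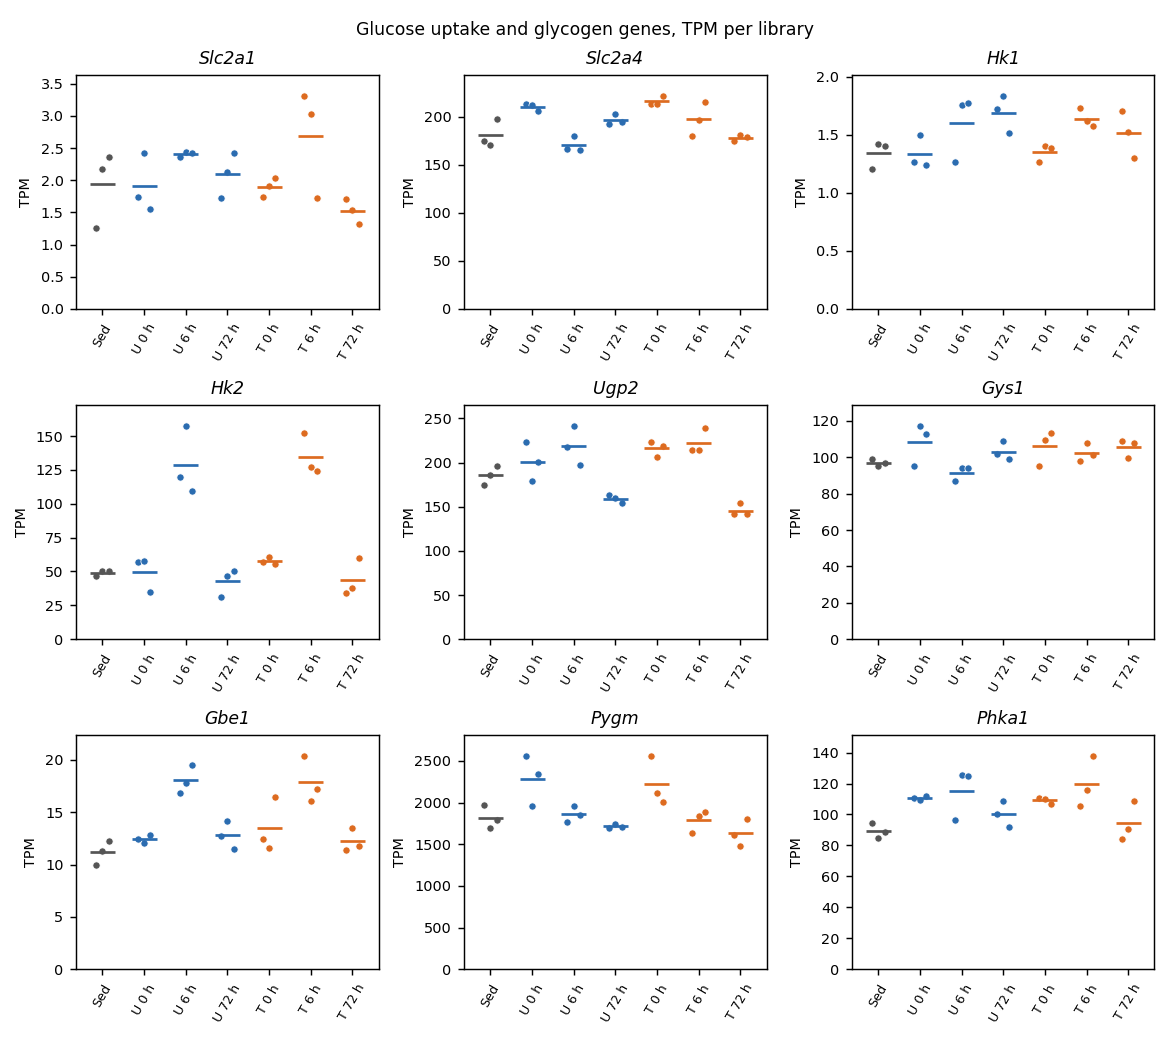
TPM (y axis, from 0, scaled per gene) of the 9 genes in each library (points) with the group mean (line), for sedentary (Sed), untrained (U) and trained (T) muscle. Hk2 stands at 109.6 TPM or above in all 6 libraries of the 6 h groups and at or below 61 TPM in all others, and the first 0 h point is the same library in U and T.

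To relate each time point to unexercised muscle, log2(TPM + 0.5) values of the 7 groups were compared in a single limma model, and a gene was called when its Benjamini-Hochberg adjusted p over all 11819 genes was below 0.05 and its change at least 1.5-fold. The fold changes below are on that scale, which understates changes of low genes.

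Of the transporters, neither gene was called against sedentary muscle at any time point. Slc2a4 read 175, 171 and 197 TPM in the sedentary libraries. At 0 h it read 213, 212 and 206 TPM in untrained mice and 213, 213 and 222 TPM in trained mice, above all sedentary libraries. Phka1 in both states, and Hk2, Ugp2 and Pygm in trained muscle, also lay above all sedentary libraries at 0 h. The Slc2a4 difference was 0.22 on the log2 scale in untrained muscle (SE 0.064, adjusted p = 0.0491) and 0.26 in trained muscle (SE 0.064, adjusted p = 0.0198), hence below 1.5-fold. Slc2a4 was the only member of the 9 with an adjusted p below 0.05 at 0 h, where 7.46% of all genes in untrained and 9.37% in trained muscle passed this p alone. Without the shared library, the difference was 0.21 (adjusted p = 0.151) in untrained and 0.27 (adjusted p = 0.0508) in trained muscle. The adjusted p also exceeded 0.05 without sedentary replicate 1 or 2 in both states, without any of the untrained 0 h libraries, and without trained 0 h replicate 3. The median difference of all genes at 0 h was itself 0.10 in untrained and 0.13 in trained muscle, and the mitochondrial share was lower in these libraries. With the libraries rescaled by the median of ratios, that of Slc2a4 was 0.10 in both, and with the mitochondrial genome and the 10 highest genes left out it was 0.046 and 0.067, past no threshold.

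At 6 h, Slc2a4 read 166, 180 and 166 TPM in untrained mice and 180, 196 and 215 TPM in trained mice. From 0 h to 6 h it was lower by 0.30 in untrained muscle on the log2 scale (SE 0.064, adjusted p = 0.00579), short of 1.5-fold, and the difference was -0.29 (adjusted p = 0.0281) without the shared library. In trained muscle the corresponding difference was -0.13 (adjusted p = 0.133), and -0.15 (adjusted p = 0.191) without it. Slc2a1 ranged from 1.26 to 3.31 TPM over the libraries, and none of its differences passed the adjusted threshold. Its largest was a difference of -0.62 between 6 h and 72 h in trained muscle (SE 0.2, adjusted p = 0.0676).

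Hk2, the insulin- and contraction-responsive hexokinase of muscle, showed the largest change of the 9 genes. It read 46.7, 50.3 and 50.5 TPM in sedentary muscle, 119, 157 and 109.6 TPM in untrained muscle at 6 h and 152, 127 and 124 TPM in trained muscle at 6 h. The untrained and trained 6 h libraries overlapped each other, and the lowest of them was above the highest sedentary, 0 h and 72 h library. Hk2 rose by 1.36 on the log2 scale in untrained muscle (SE 0.229, 95% CI 0.88 to 1.85, 2.57-fold, adjusted p = 0.00109). In trained muscle the rise was 1.44 (SE 0.229, 95% CI 0.95 to 1.92, 2.71-fold, adjusted p = 0.000886). Hk2 and Gbe1 were the 2 members of 9 called higher at 6 h, compared to 3.53% of all genes in untrained and 2.41% in trained muscle.

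Directly after the bout, Hk2 read 56.9, 58.1 and 34.7 TPM in untrained mice and 56.9, 61 and 55.6 TPM in trained mice. These values gave differences from sedentary of -0.02 (adjusted p = 0.982) and 0.23 (adjusted p = 0.536), and without the shared library of -0.13 (adjusted p = 0.851) and 0.24 (adjusted p = 0.613). From 0 h to 6 h, Hk2 rose by 1.38 in untrained muscle (adjusted p = 0.000871) and by 1.21 in trained muscle (adjusted p = 0.00174), where it was the single member called higher, beside 2.04% and 1.51% of all genes. Without the shared library these rises were 1.49 (adjusted p = 0.00328) and 1.20 (adjusted p = 0.00901). At 72 h it read 31, 47 and 50.1 TPM in untrained mice and 33.8, 37.7 and 60 TPM in trained mice, levels that overlapped the sedentary ones. Between 6 h and 72 h it fell by 1.60 in untrained muscle (adjusted p = 0.000324) and by 1.65 in trained muscle (adjusted p = 0.000286). Fitted on the 2 untrained groups alone, the rise from 0 h to 6 h no longer passed (adjusted p = 0.061). Hk1, the hexokinase of most tissues, ranged between 1.21 and 1.84 TPM, and no comparison of it passed the adjusted threshold.

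**Figure D2:**
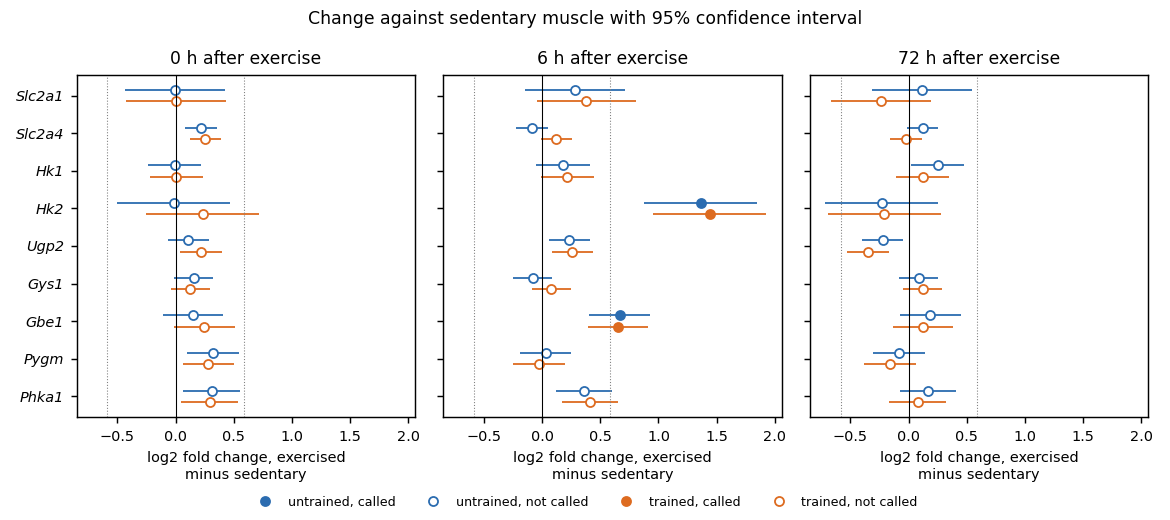
Log2 fold change against sedentary muscle (x axis) with its 95% confidence interval for the 9 genes at 0, 6 and 72 h in untrained (blue) and trained (orange) muscle, with called genes filled and 1.5-fold marked by dotted lines. The filled points are Hk2 (1.36 and 1.44) and Gbe1 (0.67 and 0.65) at 6 h.

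Among the glycogen-building genes, Gbe1 was called at 6 h. It read 10, 11.3 and 12.3 TPM in sedentary muscle, 16.8, 17.8 and 19.5 TPM in untrained muscle at 6 h, and 20.3, 16.1 and 17.3 TPM in trained muscle at 6 h. No 6 h library overlapped a sedentary one. Gbe1 rose by 0.67 in untrained muscle (SE 0.122, 95% CI 0.41 to 0.93, 1.59-fold, adjusted p = 0.00214) and by 0.65 in trained muscle (SE 0.122, 95% CI 0.39 to 0.91, 1.57-fold, adjusted p = 0.00291). The trained value stood close to the fold threshold, which it missed without trained 6 h replicate 1 (0.56) and without sedentary replicate 1 (0.58), and a fit of these groups alone gave an adjusted p of 0.0555.

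At 0 h, Gbe1 read 12.4, 12.1 and 12.8 TPM in untrained and 12.4, 11.6 and 16.5 TPM in trained muscle. It was higher at 6 h than at 0 h by 0.52 in untrained muscle (adjusted p = 0.0121) and by 0.40 in trained muscle (adjusted p = 0.0256), neither reaching 1.5-fold. Without the shared library the untrained difference was 0.51 (adjusted p = 0.0435), and the trained one was 0.35, with an adjusted p above the threshold. The trained difference also missed that threshold without trained 0 h replicate 2 (0.31) or trained 6 h replicate 1 (0.31). From 6 h to 72 h it was lower by 0.48 (adjusted p = 0.0202) and 0.53 (adjusted p = 0.012), again short of the fold threshold. These adjusted p exceeded 0.05 without untrained 6 h replicate 3 or untrained 72 h replicate 1 or 3, and without trained 6 h or trained 72 h replicate 1, where the differences were -0.41 to -0.48. The 72 h levels were 12.8, 14.1 and 11.5 TPM in untrained and 11.4, 13.5 and 11.8 TPM in trained muscle, overlapping the sedentary range.

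Ugp2 differed most between the late time points. It read 175, 186 and 196 TPM in sedentary muscle, 214, 214 and 239 TPM in trained muscle at 6 h, and 141, 154 and 142 TPM in trained muscle at 72 h, where all libraries lay below the sedentary ones. Between 6 h and 72 h, Ugp2 fell by 0.61 in trained muscle (SE 0.084, 1.53-fold lower, adjusted p = 0.000268). Under the median-of-ratios scaling this difference was -0.57, and without the mitochondrial genome and the highest genes -0.55, both with adjusted p below 0.05 but under 1.5-fold. In untrained muscle, Ugp2 read 218, 241 and 197 TPM at 6 h and 164, 160 and 154 TPM at 72 h, a difference of -0.45 (SE 0.084, adjusted p = 0.00258) that stayed under 1.5-fold. Hk2 was thus the single member called lower from 6 h to 72 h in untrained muscle, and Hk2 and Ugp2 were the 2 members in trained muscle, beside 2.83% and 2.52% of all genes. Against sedentary muscle at 72 h, the Ugp2 difference was -0.22 in untrained (adjusted p = 0.802) and -0.35 in trained mice (adjusted p = 0.0854). The untrained 72 h libraries, like the trained ones, all lay below the sedentary ones. At 6 h, the Ugp2 libraries of both states all lay above the sedentary ones. The 6 h differences were 0.23 in untrained (adjusted p = 0.0994) and 0.26 in trained mice (adjusted p = 0.0603).

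Gys1 stayed between 86.7 and 117 TPM in all libraries, and no comparison passed the adjusted threshold. Without the shared library, however, its 0 h difference in untrained muscle was 0.24 with an adjusted p of 0.0384, compared to 0.16 and 0.241 with it. Likewise, its difference between 6 h and 0 h in untrained muscle was -0.33 (adjusted p = 0.00488) without that library and -0.24 (adjusted p = 0.0639) with it. A gene on the opposite strand overlaps Ugp2 (Vps54 and Gm12043), Gys1 (Ruvbl2) and Slc2a4 (Ybx2) in the annotation, at means of 12.7 TPM or less. The library kit named in the labels (Illumina TruSeq RNA) does not mark strand, so reads of a gene and of its antisense partner cannot be told apart.

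In glycogen breakdown, Pygm read 1968, 1700 and 1795 TPM in sedentary muscle, 2556, 1956 and 2346 TPM in untrained muscle at 0 h and 2556, 2113 and 2003 TPM in trained muscle at 0 h. The highest value belonged to the shared library. The differences were 0.32 (adjusted p = 0.0746) and 0.28 (adjusted p = 0.0986), and without that library 0.24 and 0.18 (adjusted p = 0.205 and 0.285). Pygm was lower by 0.31 at 6 h than at 0 h in trained muscle (adjusted p = 0.0406). This difference was -0.21 without the shared library, -0.14 under the median-of-ratios scaling and -0.10 without the mitochondrial genome and the highest genes, each with an adjusted p above the threshold, as it was without trained 0 h replicate 2 or trained 6 h replicate 1 or 2. Over all genes the median of this comparison was -0.15.

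Phka1 read 94.6, 84.5 and 88.6 TPM in sedentary muscle, 96.3, 125 and 125 TPM in untrained muscle at 6 h and 105, 116 and 138 TPM in trained muscle at 6 h. All 6 libraries at 6 h lay above the sedentary ones. The difference was 0.36 in untrained (SE 0.115, adjusted p = 0.0619) and 0.41 in trained muscle (SE 0.115, adjusted p = 0.0305), below 1.5-fold. Leaving out trained 6 h replicate 3 gave 0.31, with an adjusted p above 0.05, and 4 other omissions of a library had the same effect on the threshold. With Phka1, 3 of the 9 genes had an adjusted p below 0.05 in trained muscle at 6 h at any fold, compared to 10.4% of all genes. At 0 h, Phka1 read 111, 109 and 112 TPM in untrained and 111, 110 and 107 TPM in trained muscle. All of these lay above the sedentary libraries. The 0 h differences were 0.31 (adjusted p = 0.11) and 0.29 (adjusted p = 0.117). Without the shared library they were 0.31 (adjusted p = 0.249) and 0.28 (adjusted p = 0.24).

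At 0 h and 72 h, 0 of the 9 genes were called by limma in either direction. At 0 h, 3.59% of all genes were called in untrained and 3.74% in trained muscle, and 3 and 4 of the 9 had an unadjusted p below 0.05, beside 24.2% and 27.2% of all genes. At 72 h the shares of all genes were 0.00846% and 0.169%, and 2 and 1 of the 9 had an unadjusted p below 0.05, beside 5.77% and 11.7% of all genes. The median difference of the 9 genes from sedentary was 0.23 in untrained and 0.26 in trained muscle at 6 h, beside 0.01 and -0.01 over all genes tested. At 0 h the medians were 0.15 and 0.23, beside 0.10 and 0.13, and at 72 h they were 0.12 and -0.02, beside 0.04 and -0.04.

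Several markers of other cell types and of the body clock moved in the same libraries. In untrained muscle at 6 h, the macrophage markers Cd68 and Csf1r were called higher (2 of 7 tested), with a summed level of 25.3 to 53.8 TPM for the 8 listed markers against 23.9 to 26.9 TPM in sedentary muscle. The slow fibre markers Myl2 and Myl3 were called lower (2 of 7), with sums of 246 to 371 TPM against 535 to 1005 TPM. In trained muscle at 6 h, Col1a1 and Col3a1 of the fibro-adipogenic list were called lower (2 of 5), with sums of 225 to 258 TPM against 233 to 273 TPM. Of 13 clock genes tested, Per1, Per2 and Cry2 were higher and Nr1d1 lower in untrained muscle at 6 h, and Per1 and Cry2 were higher and Nr1d1 lower in trained muscle. The hour of sacrifice is not given in the sources used here. The part of these genes in the Hk2 and Gbe1 values was not tested. The fast glycolytic fibre markers had 0 of 7 called at 6 h in both states, and the neutrophil markers summed to 1.25 TPM or less at 6 h and in sedentary muscle.

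At 0 h, the endothelial marker Kdr was called lower in both states (1 of 8), with sums of 46.2 to 57.5 TPM in untrained and 49.9 to 54.6 TPM in trained muscle against 52.2 to 66.1 TPM in sedentary muscle. In untrained muscle at 0 h, Myl3 was also called lower (1 of 7 slow fibre markers, sums of 267 to 394 TPM against 535 to 1005 TPM), as was Pdgfrb of the mural list (1 of 4, sums of 48.0 to 55.3 TPM against 51.7 to 61.1 TPM). Among the clock genes, Per1 and Ciart were higher at 0 h in both states, and in trained muscle Per2 was higher and Nr1d1 lower. From 0 h to 6 h, Pdgfrb was called higher in both states and Cd68 in untrained muscle, and Col1a1 and Col3a1 were called lower in trained muscle. In the same interval the clock gene Cry2 was higher in untrained muscle, Per1 and Ciart were lower in both states, and Nr1d1 was lower in trained muscle.

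From 6 h to 72 h, the red blood cell markers Hba-a1, Hbb-bs and Hbb-bt were called higher in untrained muscle (3 of 5 tested), with sums of 410.4 to 805 TPM for the 7 listed markers at 72 h against 296 to 306 TPM at 6 h. Col3a1 and Lum were higher there as well (2 of 5 fibro-adipogenic markers, 240.4 to 307 TPM against 138 to 377 TPM), with Nr1d1 higher and Per1 and Cry2 lower. In trained muscle, Hba-a2 was called higher (1 of 5, 419 to 463 TPM against 297 to 324 TPM), as was Lum (1 of 5, 269.6 to 299 TPM against 225 to 258 TPM), and Myl2 was called lower (1 of 7, 275 to 421 TPM against 380 to 1130 TPM). Of the clock genes, Per3, Nr1d1, Dbp, Hlf and Ciart were higher and Arntl lower in trained muscle over this interval. Against sedentary muscle at 72 h, Cd68 was called higher in untrained muscle (1 of 7 tested macrophage markers, 36.8 to 38.1 TPM against 23.9 to 26.9 TPM). In trained muscle at 72 h, Per1 was higher and Arntl lower than in sedentary muscle. The part of these genes in the 0 h, 72 h and recovery values of the 9 genes and of the pathway genes was not tested.

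Trained and untrained muscle were also compared directly at each time point. Such a difference holds the training itself and any change in the response to the bout together, and these cannot be told apart. At 0 h, limma called 0 of 11819 genes (0%), with 143 at an unadjusted p below 0.05 and none of the 9 among these. Both 0 h groups hold the shared library, and 0 of 11819 genes were called without it too. At 6 h, 2.01% of all genes were called and 0 of the 9. Hk2 differed by 0.07 (95% CI -0.41 to 0.56) and Gbe1 by -0.01 (95% CI -0.27 to 0.24), so that differences within these intervals cannot be separated from 0 with 3 libraries a group. Slc2a4 was higher in trained muscle by 0.21 (SE 0.064, 95% CI 0.07 to 0.34, unadjusted p = 0.00541, limma) without overlap of the libraries, and its adjusted p was 0.0832. Gys1 also did not overlap, at 98.1, 108 and 101 TPM in trained against 86.7, 93.8 and 94.2 TPM in untrained muscle, with a difference of 0.16 (adjusted p = 0.297).

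At 72 h, 0.245% of all genes and 0 of the 9 were called. Slc2a4 read 175, 181 and 178 TPM in trained and 192, 202 and 194 TPM in untrained muscle. The groups did not overlap, with a difference of -0.14 (95% CI -0.28 to -0.01, unadjusted p = 0.0425, adjusted p = 0.314, limma). Slc2a1 was likewise separated, at 1.71, 1.54 and 1.32 TPM in trained against 1.73, 2.13 and 2.43 TPM in untrained muscle, with a difference of -0.36 (adjusted p = 0.431). In this comparison Cd68 was called lower in trained muscle (1 of 7 tested macrophage markers, sums of 26.4 to 31.2 TPM against 36.8 to 38.1 TPM). Of the clock genes, Per1 and Ciart were higher and Arntl lower. The part of these genes in the 72 h differences was not tested.

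Ratios within a library do not depend on how the libraries are scaled to each other. With 3 libraries against 3, the design allows no exact two-sided permutation p below 0.1. The ratio of Hk2 to Hk1 was 36.7 ± 1.71 (SD, n = 3) in sedentary muscle and reached 81.9 ± 17.6 in untrained and 81.9 ± 5.27 in trained muscle at 6 h, without overlap (exact permutation p = 0.1 each). At 0 h the ratio was 42.9 ± 2.52 in trained muscle, above all sedentary libraries (1.17-fold, exact permutation p = 0.1). The trained 0 h libraries other than the shared one read 43.6 and 40.2. In untrained muscle at 0 h the ratio was 37.2 ± 8.68, which overlapped. At 72 h the ratio of Hk2 to Hk1 was 25.5 ± 7.48 in untrained muscle, with all libraries below the sedentary ones, and 30.2 ± 14.1 in trained muscle, which overlapped. In untrained muscle at 72 h, Hk2 itself overlapped the sedentary libraries, whereas Hk1, at 1.52 to 1.84 TPM, lay above all of them. The ratio of Slc2a4 to Slc2a1 was 70.9 ± 2.73 in untrained muscle at 6 h and 100.1 ± 33.4 in sedentary muscle, without overlap, whereas in trained muscle it varied from 54.3 to 125. Hk1 and Slc2a1, the divisors of these ratios, are low genes whose counting error is unknown, and each is overlapped by a gene on the opposite strand.

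The ratio of Gys1 to Pygm was 0.0534 ± 0.00283 in sedentary muscle. It was higher at 72 h, at 0.0601 ± 0.00211 in untrained and 0.0649 ± 0.0042 in trained muscle, in both cases without overlap (1.13- and 1.22-fold, exact permutation p = 0.1 each). At 6 h it was 0.0574 ± 0.00347 in trained and 0.0493 ± 0.00143 in untrained muscle, also without overlap (1.16-fold, exact permutation p = 0.1).

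**Figure D3:**
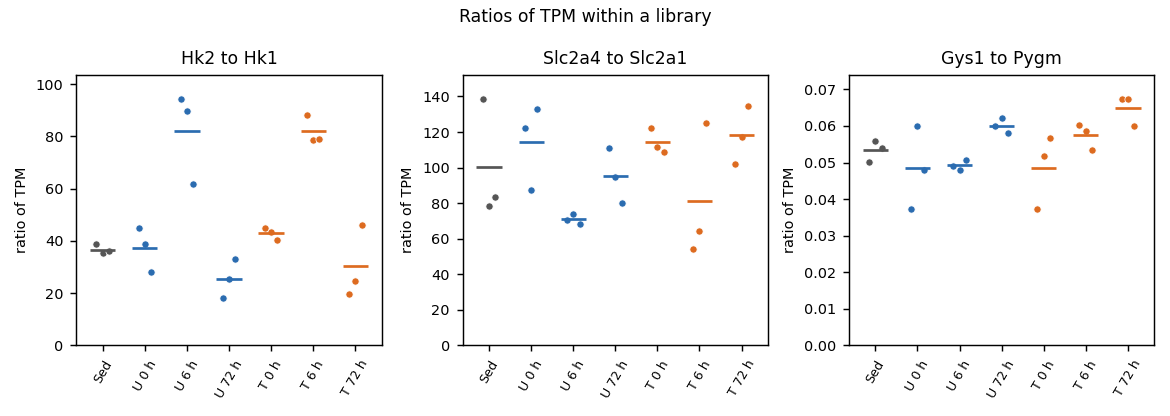
Ratios of TPM within a library (y axis, from 0) for Hk2 to Hk1, Slc2a4 to Slc2a1 and Gys1 to Pygm in the 7 groups, with points for libraries and lines for means. The ratio of Hk2 to Hk1 is 61.7 to 94.2 in the 6 libraries of the 6 h groups and at most 46.2 in the others.

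Other genes of the pathway were taken from lists by function. Of 18 tested genes of glucose transport and GLUT4 traffic (20 listed), 5 were called in at least 1 of 13 comparisons, as were 3 of the 9 genes (Hk2, Gbe1 and Ugp2) and 13.7% of all genes. At 0 h, Irs2, Irs1 and Arrdc4 were called higher in untrained muscle, and Irs2 and Arrdc4 in trained muscle. Irs2, an adaptor of the insulin receptor, read 1.94, 1.93 and 2.22 TPM in sedentary, 14.9, 15 and 13 TPM in untrained 0 h and 14.9, 23.3 and 12.6 TPM in trained 0 h libraries. It rose by 2.55 (SE 0.187, adjusted p = 2.86e-07) and 2.74 (SE 0.187, adjusted p = 1.27e-07), and by 2.51 and 2.80 without the shared library. By 6 h it had fallen by 2.08 in untrained and by 2.82 in trained muscle (adjusted p = 3.05e-06 and 8.09e-08), and the differences were -2.05 and -2.89 without the shared library.

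Arrdc4, an arrestin-domain protein related to TXNIP, rose at 0 h by 1.02 in untrained (SE 0.14, adjusted p = 0.000171) and 0.93 in trained muscle (SE 0.14, adjusted p = 0.000427), and fell again by 6 h by 0.97 and by 1.08. Without the shared library, the 0 h differences were 0.99 (adjusted p = 0.00192) and 0.85 (adjusted p = 0.00588), and those from 0 h to 6 h were -0.94 (adjusted p = 0.0024) and -0.999 (adjusted p = 0.00128). Irs1 and Txnip lay outside the 3 genes named by rank and were chosen after their values were seen. Irs1, another insulin receptor adaptor, rose by 0.91 in untrained muscle at 0 h (adjusted p = 0.0388), with an adjusted p of 0.147 without the shared library and above the threshold under most alternatives. Txnip, which promotes the removal of glucose transporters from the surface, fell by 0.98 between 6 h and 72 h in trained muscle (adjusted p = 0.0288), a call lost when trained 6 h replicate 1 or 3, or trained 72 h replicate 2 or 3, was left out.

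Tbc1d1, a Rab GTPase-activating protein that holds GLUT4 vesicles inside the fibre until it is phosphorylated, was the gene of these lists that differed between the training states. It read 3.92, 6.3 and 7.35 TPM in sedentary muscle. At 6 h it read 23.7, 16.3 and 20.9 TPM in untrained and 6.91, 9.29 and 9.57 TPM in trained muscle, so that every untrained library was above every trained one. Tbc1d1 rose by 1.73 against sedentary in untrained muscle (SE 0.209, 3.33-fold, adjusted p = 5.03e-05) and was lower in trained than in untrained muscle by 1.19 (SE 0.209, 2.28-fold, adjusted p = 0.00322). A fit of the 2 groups alone gave an adjusted p of 0.14 for the difference between training states. Cd68 and Csf1r were likewise called lower in trained muscle in the same comparison (2 of 7 tested macrophage markers), with sums of 20.2 to 28.5 TPM against 25.3 to 53.8 TPM, and Myl2 of the slow fibre list was called higher (1 of 7), with sums of 380 to 1130 TPM against 246 to 371 TPM. The muscle fibre marker Mb was called higher (1 of 6), while the sums of that list were 54676 to 60936 TPM against 63175 to 66873 TPM. The clock gene Nr1d1 was called lower (1 of 13). The part of these genes in the Tbc1d1 difference, and in the 6 h differences of the 9 genes between training states, was not tested.

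Among genes handling glucose 6-phosphate, Slc37a4, the glucose 6-phosphate transporter, fell by 0.61 between 0 h and 6 h in trained muscle (adjusted p = 0.00119). The difference was below 1.5-fold without the shared library (-0.55, adjusted p = 0.00947), without trained 6 h replicate 1 (-0.56) or 2 (-0.52), under the median-of-ratios scaling (-0.45) and without the mitochondrial genome and the highest genes (-0.41). A fit of the 2 groups alone gave an adjusted p of 0.0653. In untrained muscle Slc37a4 was also lower at 6 h than at 0 h, though not called. That difference was -0.53 without the shared library (adjusted p = 0.0181), and -0.61 to -0.47 over 15 alternatives, each with an adjusted p below 0.05.

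On the side of glycogen synthesis, 2 of 11 tested genes (16 listed) were called at least once, beside the 13.7% of all genes. Ppp1r3c, a subunit that targets protein phosphatase 1 to glycogen, read 51, 67.5 and 76.3 TPM in sedentary muscle, 247, 174 and 133 TPM in untrained and 247, 173 and 145 TPM in trained muscle at 0 h. It rose by 1.47 and 1.51 (SE 0.313, adjusted p = 0.00763 and 0.00604), and by 1.24 and 1.30 without the shared library. At 6 h the rises were 1.17 and 1.12 (adjusted p = 0.0262 and 0.0305), which fell short of the threshold without sedentary replicate 1 or 2, without untrained 6 h replicate 2 or 3 and without trained 6 h replicate 2 or 3, respectively. In trained muscle it then fell by 2.04 to 43.7, 30.5 and 28.7 TPM at 72 h (adjusted p = 0.0006). Stbd1, a glycogen-binding protein, rose by 0.66 in untrained muscle at 0 h (adjusted p = 0.0107, and 0.0509 without the shared library). It was below 1.5-fold without sedentary replicate 2 (0.55), under the median-of-ratios scaling (0.54) and without the mitochondrial genome and the highest genes (0.50). In trained muscle at 0 h, Stbd1 passed the adjusted p but not 1.5-fold, and 7 of 15 alternatives kept that p below 0.05. Without the shared library the trained difference was 0.47 (adjusted p = 0.111).

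Of 8 genes of glycogen breakdown tested besides Pygm and Phka1, Gaa alone was called at least once, beside the 13.7% of all genes. Gaa, the lysosomal acid glucosidase, fell by 0.68 from 6 h to 72 h in untrained muscle (adjusted p = 0.0164), where untrained 72 h replicate 2 read 27.8 TPM and the others 50.4 and 48.6 TPM. Without that library the difference was -0.41, below 1.5-fold, and without untrained 6 h replicate 2 or 3 the adjusted p was 0.0633 or 0.0674.

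**Figure D4:**
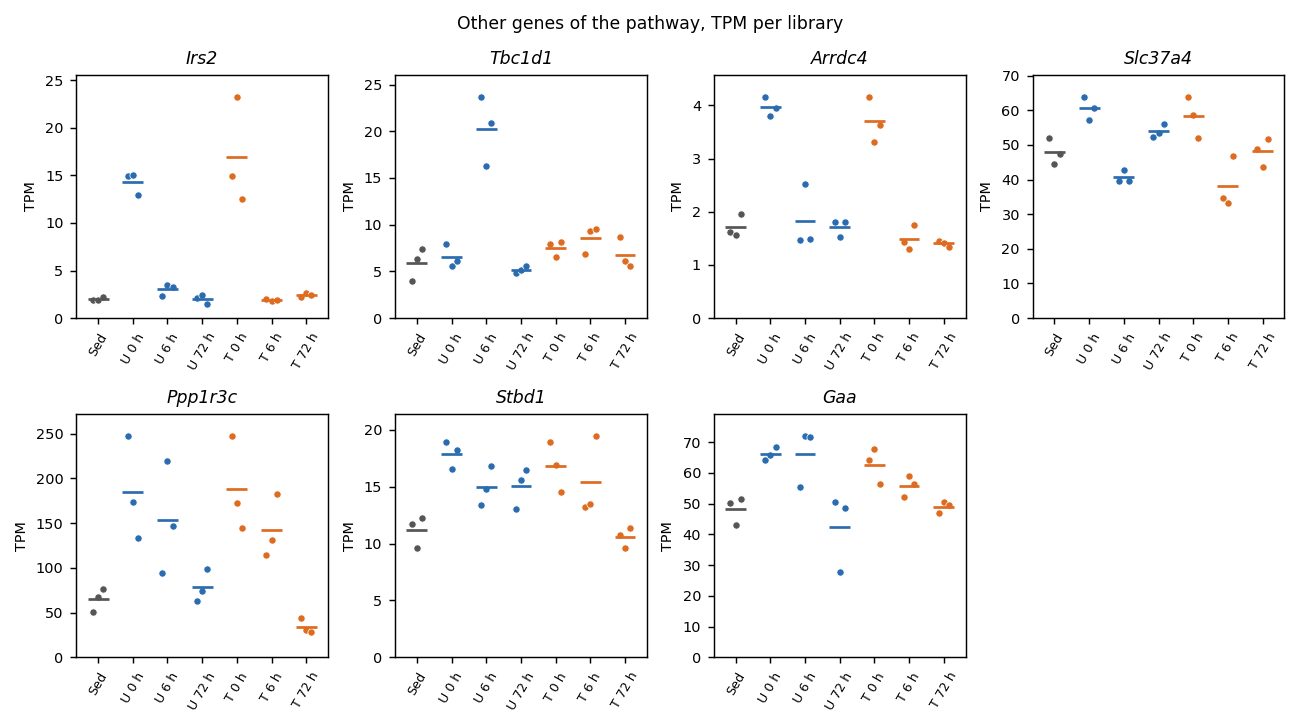
TPM (y axis, from 0, scaled per gene) of 7 other pathway genes in each library, with points for libraries and lines for group means, labelled as in the plot of the 9 genes. Irs2 and Arrdc4 are highest at 0 h in both training states, and Tbc1d1 is at 16.3 to 23.7 TPM in untrained muscle at 6 h and at most 9.57 TPM elsewhere.

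The genes whose log2 levels followed those of the called members most closely over the 20 distinct libraries were listed as a description. For Hk2 these were Ppargc1a (Pearson's r = 0.934), Slc29a2 (0.922) and Il15ra (0.919). For Gbe1 they were Tti2 (0.91), Iws1 (0.906) and Pi4k2a (0.897). For Ugp2 they were Gm12043 (0.929), which overlaps it on the opposite strand, Ccdc174 (0.928) and Gpr157 (0.906). Among the 9 genes, Hk2 and Gbe1 had the highest correlation at 0.786. All of these libraries share the same groups and TPM scaling.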

How the data were processed

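RNA-seq of quadriceps was processed by the authors. The submitters' processing notes name STAR 2.7.9, Salmon 1.5.0 and the build GRCm39, and the deposited values are TPM per gene symbol, summing to 997304 to 997921 in each library. TPM is relative, so a change in abundant transcripts shifts all others, and depth cannot be recovered. All columns carried a group and replicate (0 unmapped).

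Values were transformed to log2(TPM + 0.5), and 11819 symbols with a mean of at least 1 TPM were fitted with limma 3.58.1 in R 4.3.3 (7 group means, variance trend, 14 residual degrees of freedom, 13 comparisons, Benjamini-Hochberg within each), after the fit was tested on simulated data. The labels do not state that libraries of a group came from separate mice, so p-values measure the spread between libraries. Ratios were tested by two-sided exact permutation in scipy 1.17.1, and figures drawn with matplotlib 3.10.9.

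The members and lists were chosen with earlier results of these data known. The text names all 9 members and, per pathway list, the 3 genes with the largest change among those called at least once, plus others where stated. For each called member, the 3 genes with the highest Pearson's r are named. Promoter windows are those of RefSeq (GRCm38.p6), matched exactly to the GRCm39 sequence. Alternatives covered the pseudocount (0.1 or 1), the filter (none, or 5 TPM), scaling, the groups fitted, the fold threshold, a replicate block, the shared 0 h library and each replicate. They were extended to the called pathway genes after the data were seen. A gene of the lists is not reported here.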

Additional observations from a re-analysis of the deposited data

Results flagged for a closer look

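Tbc1d1 differed between the training states at 6 h by the direct test, with a log2 difference of -1.19 (trained minus untrained, SE 0.209, adjusted p = 0.00322, limma), lower in all 3 trained libraries than in any untrained one. For Gys1 at 6 h, all 3 trained libraries lay above the sedentary mean and all 3 untrained ones below it. The direct test gave 0.16 (adjusted p = 0.297, limma), so that a difference between training states was not shown. For Slc2a4 at 72 h, all 3 trained libraries lay below the sedentary mean and all 3 untrained ones above it. The direct test gave -0.14 (adjusted p = 0.314, limma), again not past the threshold.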

How the results depend on the processing

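No alternative reversed a value of a named gene that had an adjusted p below 0.05. Values near 0 did change sign, as Slc2a1 and Hk1 in untrained 0 h muscle without the shared library (0.04 and 0.02). Without the mitochondrial genome and the 10 highest genes, the median over all genes moved from 0.10 to -0.06 in untrained 0 h muscle, from 0.13 to -0.04 in trained 0 h muscle and from -0.15 to 0.03 in trained 6 h against 0 h. Leaving out the shared 0 h library also moved all-gene calls at 72 h. In trained muscle against sedentary, 7 genes called higher and 13 lower became 15 and 17. In trained against untrained muscle, 7 higher and 22 lower became 13 and 30. Counts of called members were judged by a change within 1.5 times, and ratio differences by a shift smaller than their SD between libraries. Apart from the omission of single libraries, 119 of 131 such counts and ratio differences kept their result, and the 12 that moved were all counts. For named genes, only values with an adjusted p below 0.05 in the 7-group fit were followed, and 331 of 380 stayed below it. Values that began above the threshold, such as those of Gys1, are not in this tally. With no fold threshold, the members passing were 1 in untrained 0 h, 1 in trained 0 h, 3 in untrained 6 h against 0 h, 3 in untrained 72 h against 6 h and 3 in trained 6 h against 0 h, beside 7.46%, 9.37%, 11.7%, 9.04% and 25.1% of all genes. With only the compared groups fitted, trained 6 h against sedentary had 1 called member and untrained 6 h against 0 h had 0. Under median-of-ratios scaling, untrained 6 h against 0 h had 2 and trained 72 h against 6 h had 1. With the mitochondrial genome and the 10 highest genes left out, untrained and trained 6 h against 0 h had 2 each and trained 72 h against 6 h had 1. Leaving out single libraries gave 1 to 2 called members in trained 6 h against sedentary. In trained 6 h against 0 h it also gave 1 to 2, with 2 without trained 6 h replicate 3. With single libraries left out, 123 of 126 counts and ratio differences kept their result, and the 3 that moved were all counts. Of the values of named genes that began below the adjusted threshold, 210 of 270 stayed below it with a library left out and 60 did not. The causes of these shifts were not tested, beyond the smaller number of libraries in some fits.

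Correlations of deviations from the group mean did not show a pairing of libraries by replicate number, and cannot exclude one. The median correlation of deviations was 0.0172 over 52 same-numbered pairs (-0.115 to 0.134) and 0.000529 over 102 others, and 8 of 19 libraries correlated best with their own number. A replicate block changed no count of called members and moved the Slc2a4 difference in untrained 0 h muscle (0.22) to an adjusted p of 0.0513. TPM values limit what can be said of low genes such as Hk1 and Slc2a1, since their counting error is unknown.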
